A study of Homo sapiens with 6 samples.

Results

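Genes of the WNT signalling pathway were examined by RNA sequencing in LNCaP, a luminal human prostate cancer line, with MEP50 lowered by a short hairpin RNA. The 42 members were given by gene symbol, and all 42 were found among the 63299 genes of the count table. They comprise 2 ligands, 13 receptors and co-receptors, 4 genes that set how long receptors stay at the surface, 6 antagonists, 10 genes of the dishevelled and destruction complex group and 7 nuclear factors. MEP50, encoded by WDR77, is the partner protein of PRMT5, an enzyme that places symmetric dimethyl marks on arginine. PRMT5 has been linked to silencing of WNT antagonists, and the comparison asks how the pathway's transcripts differ when MEP50 is lowered. The knockdown group held 3 libraries titled Dox+, that is, LNCaP cells carrying the MEP50 hairpin and given its doxycycline inducer. The control group held 3 libraries of LNCaP cells labelled without knockdown and without the inducer, and whether these carry the uninduced hairpin is not stated. Hairpin sequence, dose and duration were not given in the sources used here. Every library with doxycycline also had the hairpin switched on, so effects of the drug and of the knockdown cannot be told apart.

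WNT ligands are secreted proteins that bind frizzled receptors at the cell surface. In the canonical branch, frizzled acts with the co-receptors LRP5 and LRP6 and signals through dishevelled to stop a destruction complex of AXIN, APC, GSK3 and CSNK1A1 from marking beta-catenin for breakdown. Beta-catenin then enters the nucleus and works with TCF and LEF factors. Other branches pass through receptors such as ROR1, ROR2 and RYK to the cytoskeleton or to calcium. In the prostate, WNT signalling takes part in budding and growth of the gland, and its components are altered in a share of advanced cancers.

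The upstream sequences of 4 members are printed because ROR1 rose while FZD1 and FZD4 fell together, and because DKK1, an antagonist, had no read in any library. WNT5A and CSNK1A1 were also picked but are not printed, because too little of their windows lay outside the gene. Each printed sequence is the stretch of the RefSeq window (GRCh38.p14) that lies upstream of the annotated start. It is cut where it would enter the gene as bounded in the count table. Capitals mark CTTTGA, the core letters read by TCF and LEF factors, or CCAAT, on either strand (TCAAAG and ATTGG). The ROR1 sequence is chr1:63773767-63774016 on the plus strand and the FZD1 sequence is chr7:91264183-91264363 on the plus strand. FZD4 is shown from chr11:86955396-86955645 on the minus strand, and DKK1 from chr10:52314031-52314280 on the plus strand.
ROR1: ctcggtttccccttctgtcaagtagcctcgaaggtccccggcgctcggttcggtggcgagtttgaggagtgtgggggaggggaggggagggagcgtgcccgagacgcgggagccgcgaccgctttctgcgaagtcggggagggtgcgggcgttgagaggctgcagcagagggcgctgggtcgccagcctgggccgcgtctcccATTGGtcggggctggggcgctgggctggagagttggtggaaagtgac
FZD1: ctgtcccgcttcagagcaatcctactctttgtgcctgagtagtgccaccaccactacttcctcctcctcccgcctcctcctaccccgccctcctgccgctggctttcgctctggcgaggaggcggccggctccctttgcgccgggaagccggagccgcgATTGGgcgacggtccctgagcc
FZD4: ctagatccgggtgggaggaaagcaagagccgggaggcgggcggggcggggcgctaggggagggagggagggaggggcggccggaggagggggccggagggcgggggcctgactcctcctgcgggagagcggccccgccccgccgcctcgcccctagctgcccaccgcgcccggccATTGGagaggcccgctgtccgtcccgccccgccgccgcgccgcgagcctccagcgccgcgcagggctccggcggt
DKK1: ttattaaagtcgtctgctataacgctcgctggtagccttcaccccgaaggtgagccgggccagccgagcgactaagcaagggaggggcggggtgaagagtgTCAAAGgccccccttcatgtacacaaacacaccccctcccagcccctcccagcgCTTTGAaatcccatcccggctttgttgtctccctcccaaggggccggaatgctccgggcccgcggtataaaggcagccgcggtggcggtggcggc

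CTTTGA stood in 1 of 35 windows of 250 bases from the 28 members that matched the RefSeq table, which is 2.86%, against 11.2% of all 35116 promoters. The window that held it was that of DKK1, with copies starting at -149 and -95 relative to the annotated start. Member windows held the letters CG a median of 22 times, against 11 in all promoters. The part of this difference in the CTTTGA shares was not tested. CCAAT, a letter group added after the sequences had been seen, stood in 12 of 35 member windows (34.3%) and in 32.0% of all promoters. ROR1 and FZD4 each held it once, at -47 and -75, and FZD1 held it once at -91, counted from a RefSeq start that lies past the end of the stretch shown. WNT5A held none in either window, and these windows lie within the gene as bounded in the count table. CSNK1A1 held CCAAT in 1 of 2, and that window also lies within its gene. The letter groups do not overlap one another in these 4 sequences. A match of letters shows no bound factor, and the sequences shown were picked for their calls.

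Libraries held 18568002 to 36234784 counts on genes, and mitochondrial genes took 0.41% to 0.596% of them. WDR77 itself fell 3.19-fold, from 44.4 ± 6.73 to 13.9 ± 1.16 CPM (counts relative to library size, scaled between libraries by TMM; SD, n = 3), with a log2 fold change of -1.67 (SE 0.16, adjusted p 0.00131, edgeR quasi-likelihood test). WDR77 shares 12.48% of its exon bases with ATP5F1 on the opposite strand and 23.99% with RP11-552M11.4 on its own strand. ATP5F1 was at -0.32 in log2 and RP11-552M11.4 at -0.56, neither past the threshold. The strand setting of the counting was not given in the sources used here. Luminal markers matched the label of the line, with none of 10 at 0, and their summed level was 6439 to 6672 CPM in knockdown and 8771 to 10740 CPM in control. Summed basal markers were 25.9 to 28.8 CPM against 37.8 to 42.9 CPM, with the defining KRT5 at 0, and neuroendocrine markers were 13.4 to 22.4 CPM against 23.2 to 32.4 CPM. Fibroblast and muscle markers were 18.5 to 23.7 CPM against 13.8 to 23.1 CPM, with DES at 0, and immune and endothelial markers were 11.4 to 26.3 CPM against 19.7 to 40.5 CPM. The luminal, basal and neuroendocrine sums were thus lower in all knockdown libraries, and their part in the results below was not tested. Libraries with the same replicate number deviated together, so a second fit used the number as a block. It is given for counts, for named genes whose call it changed and as a range for the members called lower.

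Of the 42 members, 34 had enough reads to be tested. ROR1 rose, and WNT5A, FZD1, FZD3, FZD4 and CSNK1A1 fell, at an adjusted p under 0.05 over all 21101 genes tested. These 6 are 17.6% of the tested members, where 7.6% of all tested genes were called, 2.72% higher and 4.88% lower. With the replicate block 2 members were higher and 7 lower, which is 26.5% against 26.1% of all genes (11.2% higher, 14.9% lower), a share near the background. Group ranges did not overlap for 8 of 34 members (23.5%), against 30.4% of all genes. The median log2 fold change of the members was -0.02, beside 0.0023 for all genes tested, with 14 members above 0 and 20 below. Leaving out 1 library, in fits without the block, kept the ROR1 call each time. Of the 5 lower calls, 0 were left on omitting knockdown replicate 2 and 1 on omitting knockdown replicate 3. On omitting replicate 1 of either group 2 were left, and 3 on omitting control replicate 3. In the block fit of all libraries the 5 lower members had adjusted p of 8.21e-05 to 0.00108 (edgeR with block).

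**Figure D1:**
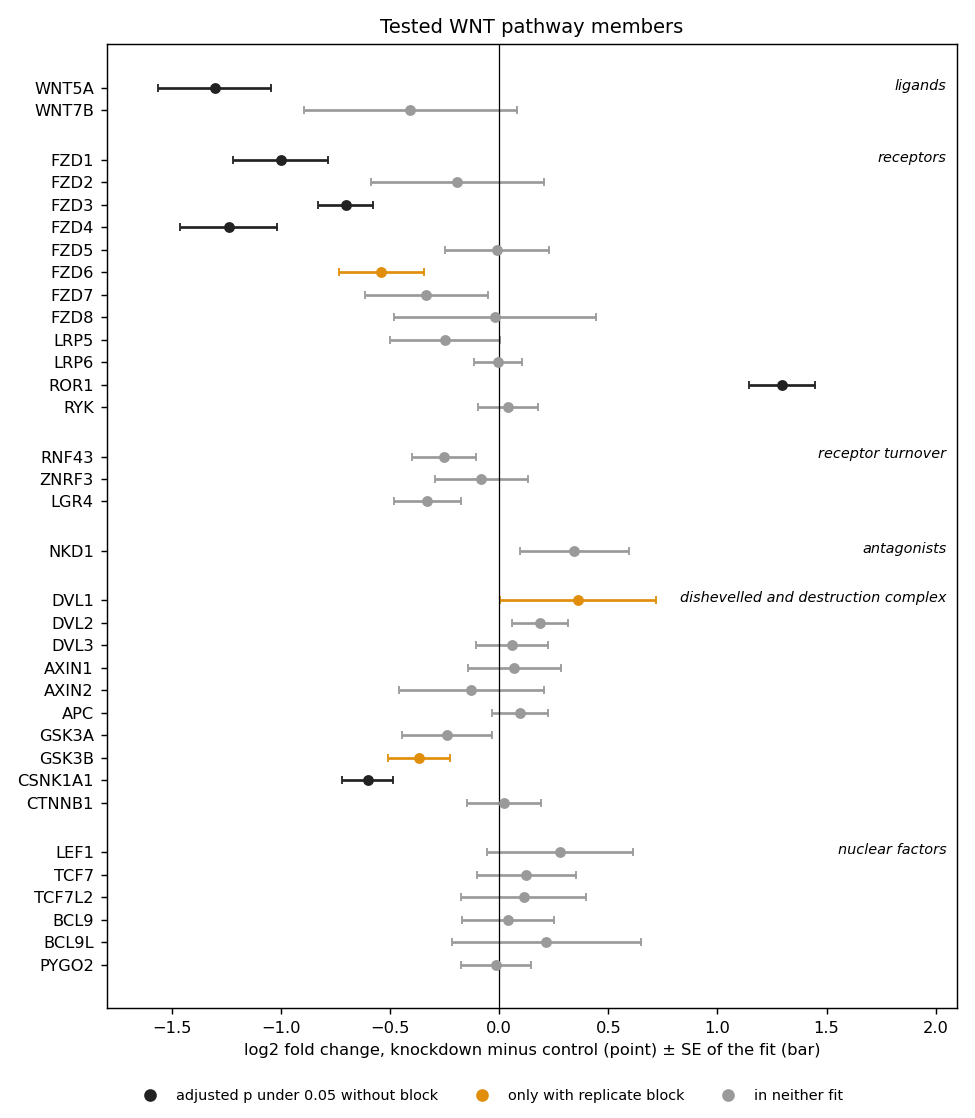
Log2 fold change (horizontal axis, knockdown minus control) of the 34 tested members, grouped by role; points are estimates from the edgeR fit without block and bars are ± 1 SE. ROR1 stands alone on the right at 1.30, WNT5A and FZD4 are farthest left, and members that passed the threshold in the block fit alone are FZD6, GSK3B and DVL1.

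Among the ligands, WNT5A fell and WNT7B did not pass the test. WNT5A, a ligand known mainly for signalling without beta-catenin (ENSG00000114251.13, chromosome 3, 55465715 to 55490539, minus strand, hg38), measured 1.29, 1.70 and 1.47 CPM in knockdown libraries 1 to 3 and 2.87, 4.46 and 3.77 CPM in control libraries 1 to 3. Every control library was above every knockdown library. The mean was 2.49-fold lower in knockdown, with a log2 fold change of -1.30 (SE 0.26, adjusted p 0.0195, edgeR). These are low levels, resting on 119 reads in the knockdown group and 340 in the control group. Omitting control replicate 3 or any one knockdown library ended the WNT5A call (adjusted p as high as 0.0644). In bulk libraries such as these, fewer cells with a transcript and less of it per cell cannot be told apart.

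WNT7B, a ligand of epithelial cells, measured 5.14, 12.4 and 7.46 CPM in knockdown and 5.78, 20.8 and 6.97 CPM in control. The groups overlapped, and in both the library numbered 2 was the highest. The fitted WNT7B difference was -0.41 in log2 (SE 0.49, adjusted p 0.649, edgeR), and among the pairs of same-numbered libraries it was -0.17, -0.74 and 0.10. On a scale corrected for gene length (TPM, each gene's share of all transcripts in a library), WNT7B was the more abundant ligand, at 3.05 to 13.1 TPM in control against 1.02 to 1.89 TPM for WNT5A.

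The receptor with the largest change was ROR1, which rose. ROR1 encodes a tyrosine kinase-like receptor that binds WNT5A (ENSG00000185483.11, chromosome 1, 63774022 to 64181498, plus strand). It measured 40.5, 31.6 and 33.2 CPM in knockdown and 14.7, 13.8 and 14.3 CPM in control. The control values lay close together, and the lowest knockdown library was far above the highest control library. ROR1 was 2.46-fold higher, at 35.1 ± 4.74 against 14.3 ± 0.44 CPM (SD, n = 3), with a log2 fold change of 1.30 (SE 0.15, adjusted p 0.00255, edgeR). Omitting each of the 6 libraries in turn left ROR1 called, at 1.17 to 1.37 in log2, as did a fit without both libraries numbered 2 (1.36, adjusted p 0.0464). ROR2, its close relative, held 13 reads over the knockdown libraries and 15 over the control libraries and was too low to test. The ligand WNT5A thus fell in the libraries in which its receptor ROR1 rose.

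Of the 8 frizzled receptors among the members, the seven-pass membrane proteins that bind WNT ligands, 3 fell, 0 rose and 5 did not pass the test. FZD9 and FZD10 are outside the member list. The calls are 37.5% of these 8, against 7.6% of all genes. With the block 4 of the 8 fell (50.0%, against 26.1% of all genes). Among all 12 tested receptors 1 rose and 3 fell without the block (33.3%), and 1 rose and 4 fell with it (41.7%). FZD4 (ENSG00000174804.3, chromosome 11, 86945679 to 86955391, minus strand), also the receptor of the non-WNT ligand norrin, measured 5.94, 5.03 and 3.85 CPM in knockdown and 12.4, 13.2 and 9.42 CPM in control. All control libraries were higher, and the mean was 2.36-fold lower in knockdown (log2 fold change -1.24, SE 0.22, adjusted p 0.0134, edgeR). The FZD4 call was lost without knockdown replicate 2 (adjusted p 0.0614). FZD4 shares 18.95% of its exon bases with PRSS23 on the opposite strand, which was also called lower, by -0.96 (adjusted p 0.0375, edgeR). Without a stated strand setting, reads of FZD4 and PRSS23 in that stretch cannot be told apart.

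FZD1 (ENSG00000157240.3, chromosome 7, 91264364 to 91271326, plus strand) measured 6.85, 7.41 and 5.54 CPM in knockdown and 12.8, 16.6 and 10.4 CPM in control, with no overlap. It fell 2.01-fold (SE of the log2 fold change 0.22, adjusted p 0.0275, edgeR). This call held without control replicate 3 and was lost without any other single library, with adjusted p up to 0.0932. FZD3, a receptor known for axon guidance and planar polarity (ENSG00000104290.10, chromosome 8, 28494205 to 28574268, plus strand), is the more abundant gene. FZD3 measured 54.5, 50.4 and 46.6 CPM in knockdown and 89.8, 79.8 and 77.2 CPM in control. The spread within each group was small beside the gap between them, and FZD3 fell 1.63-fold (log2 fold change -0.70, SE 0.13, adjusted p 0.0131, edgeR). Without control replicate 1, or without knockdown replicate 2 or 3, FZD3 was not called (adjusted p as high as 0.067).

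FZD6, a receptor of the planar polarity branch, was the most abundant of FZD1 to FZD8 by TPM though not by CPM. It measured 37.3, 43.3 and 56.7 CPM in knockdown and 59.9, 57.6 and 82.1 CPM in control. The groups did not overlap, the highest knockdown library coming close to the lowest control library. Replicate 3 was the highest in both groups, and each same-numbered pair was lower in knockdown, by -0.68, -0.41 and -0.53 on the log2 scale. The log2 fold change of FZD6 was -0.54 (SE 0.20) with an adjusted p of 0.127 without the block and 0.00223 with it (edgeR). Of the remaining frizzled genes, FZD7 had a log2 fold change of -0.33, FZD2 of -0.19, FZD8 of -0.02 and FZD5 of -0.01, with adjusted p of 0.505 to 0.985 (edgeR). FZD5 measured 29.6 to 45.0 CPM in knockdown and 26.9 to 49.8 CPM in control. FZD2, FZD7 and FZD8 were at 0.31 to 5.81 CPM over all libraries.

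**Figure D2:**
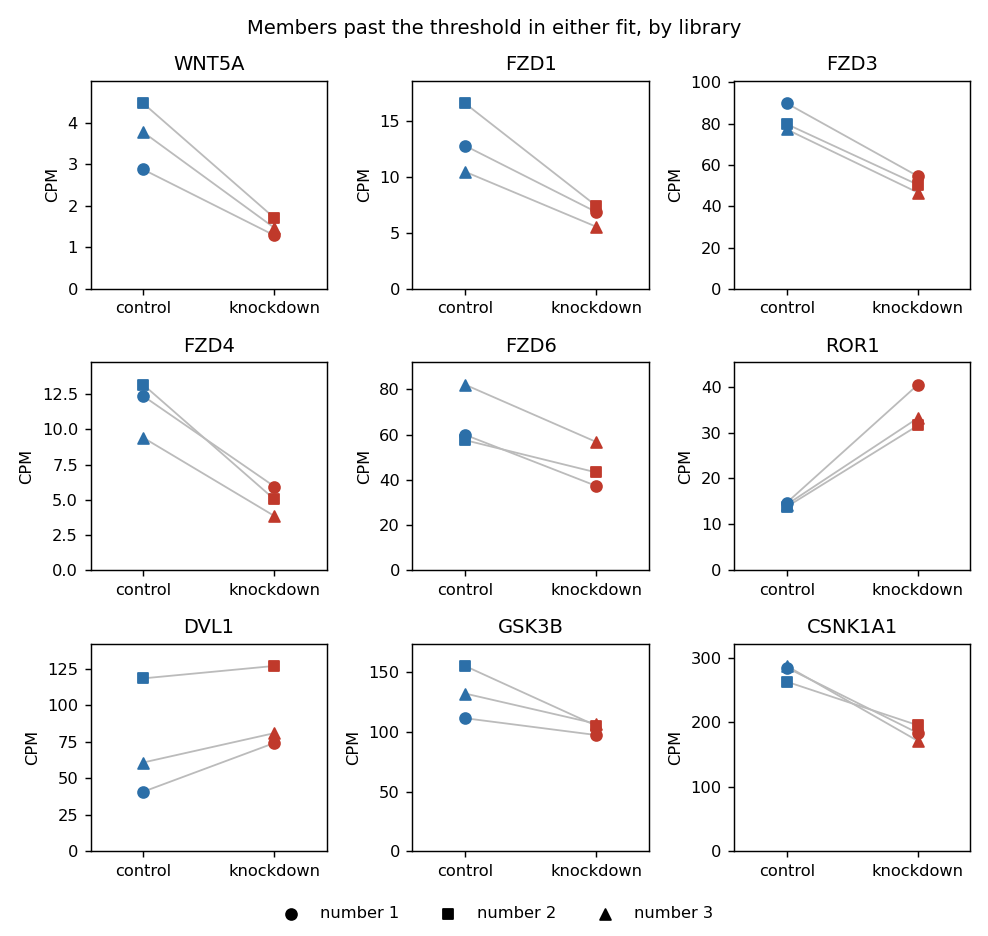
CPM (vertical axis, from 0) in each control and knockdown library for the 9 members past the threshold in either fit; marker shape gives the replicate number and grey lines join libraries of the same number. ROR1 is higher in knockdown in all 3 pairs, DVL1 is higher with overlapping groups, and the other 7 are lower without overlap.

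In the fit without the block all 8 frizzled members had log2 fold changes below 0, with a median of -0.44. FZD5 was so close to 0 that it came out above it with RLE scaling (0.0062), DESeq2 (0.0058) and limma-voom (0.032). FZD5 was also above 0 with the filter of 1 CPM (0.04) and the block (0.0091), as was FZD8 with that filter (0.03). In fits without 1 library FZD5 ran from -0.22 to 0.20, FZD8 from -0.65 to 0.35 and FZD2 from -0.40 to 0.11. Summed over FZD1 to FZD8, frizzled transcripts came to 59.2, 72.2 and 75.9 TPM in knockdown and 84.6, 105.8 and 100.7 TPM in control. The control libraries were all higher, at 97.0 ± 11.1 against 69.1 ± 8.77 TPM (SD, n = 3), a log2 difference of -0.49, and the sum is given as a description without a test. FZD6 made up 47.4% of the summed TPM in knockdown and 49.2% in control, FZD3 15.6% and 18.1%, and FZD5 24.3% and 17.5%. The share of FZD5 reached 27.7% in knockdown library 1 and ranged from 11.6% to 22.4% in control, and the groups overlapped. FZD1 and FZD4 had the largest log2 differences of these 8 genes. They held 5.76% and 4.79% of the control sum, so most of the lower sum lay in FZD6 and FZD3.

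**Figure D3:**
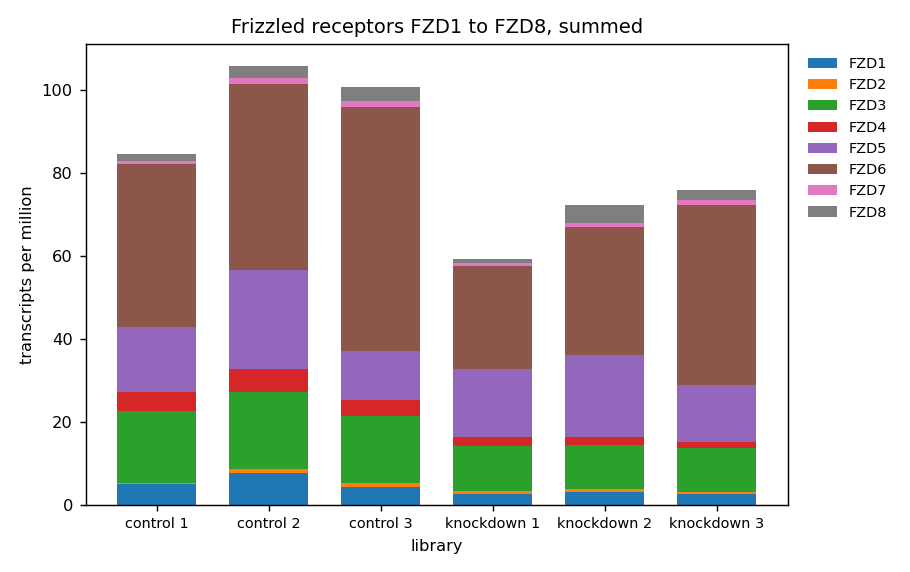
Stacked bars of TPM (vertical axis, from 0) for FZD1 to FZD8 in each of the 6 libraries. The 3 knockdown bars reach 59.2 to 75.9 TPM and the 3 control bars 84.6 to 105.8 TPM, with FZD6 the thickest layer in each.

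The co-receptors and RYK did not pass the test. LRP6 measured 75.0 to 80.0 CPM in knockdown and 77.5 to 80.1 CPM in control, a log2 fold change of -0.01 with an SE of 0.11. Its relative LRP5 had -0.25 (SE 0.25), with control libraries spread from 40.4 to 88.9 CPM and the highest again numbered 2. RYK, an atypical WNT receptor without kinase activity, had 0.04 (SE 0.14). These estimates differed from 0 by about their own SE or less. By control TPM the receptors ran from FZD6 (39.3 to 59.0) through LRP5 (17.5 to 46.0), RYK (25.8 to 27.96), LRP6 (20.0 to 24.7), FZD3 (16.4 to 18.4) and FZD5 (11.7 to 23.7) to ROR1 (5.84 to 6.56). FZD6 and LRP5 overlapped, as did LRP5 and RYK, FZD3 and FZD5, and ROR1 and FZD1. In knockdown ROR1 reached 13.7 to 16.4 TPM, which lies above FZD3 at 10.5 to 10.8 TPM, the reverse of their order in control. This order rests on the gene lengths of the count table. By CPM, which is not corrected for length, FZD3 stayed above ROR1 in every knockdown library.

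Receptor turnover genes did not pass the test in either fit. RNF43 and ZNRF3 encode membrane ubiquitin ligases that remove frizzled from the surface, and LGR4 and LGR5 are R-spondin receptors that hold these ligases back. RNF43 measured 20.6 to 24.6 CPM in knockdown and 24.1 to 28.2 CPM in control (log2 fold change -0.25, SE 0.15). RNF43 shares 20.27% of its exon bases with TSPOAP1-AS1 on the opposite strand and 1.91% with SUPT4H1 on the same strand. How reads in those stretches were assigned is not given in the sources used here. ZNRF3 had a log2 fold change of -0.08 (SE 0.21). LGR4 measured 26.8, 29.7 and 37.4 CPM in knockdown, in ascending order, and 37.2 to 40.8 CPM in control. Its log2 fold change was -0.33 (SE 0.16), with an adjusted p of 0.228 without the block and 0.0565 with it (edgeR). LGR5, a stem cell marker of the gut and itself a target of the pathway, had 5 reads in the knockdown group and 1 in the control group.

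Of the 6 antagonists, 5 were close to silent in both groups and NKD1 was not. DKK1, which blocks LRP5 and LRP6, had 0 reads in all 6 libraries, and a count of 0 allows up to 0.0399 CPM over the knockdown group and 0.032 CPM over the control group (3 counts per group, counting error only). WIF1, which binds WNT ligands directly, held 3 reads in knockdown and 1 in control. SFRP1, a secreted decoy related to frizzled, held 6 and 5 reads, and NOTUM, an enzyme that strips the lipid from WNT ligands, held 8 and 6. DKK3, a relative of DKK1, had 2, 7 and 5 reads in knockdown and 1, 4 and 7 in control, which is 0.107 to 0.229 CPM against 0.0388 to 0.2 CPM. For each of these genes the groups overlapped or were equal, and differences were not detectable at this depth. NKD1, an intracellular inhibitor of dishevelled and a target of the pathway, was the single antagonist tested. It measured 6.69, 8.65 and 10.0 CPM in knockdown and 4.89, 8.63 and 6.48 CPM in control, a log2 fold change of 0.34 (SE 0.25, adjusted p 0.435, edgeR).

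**Figure D4:**
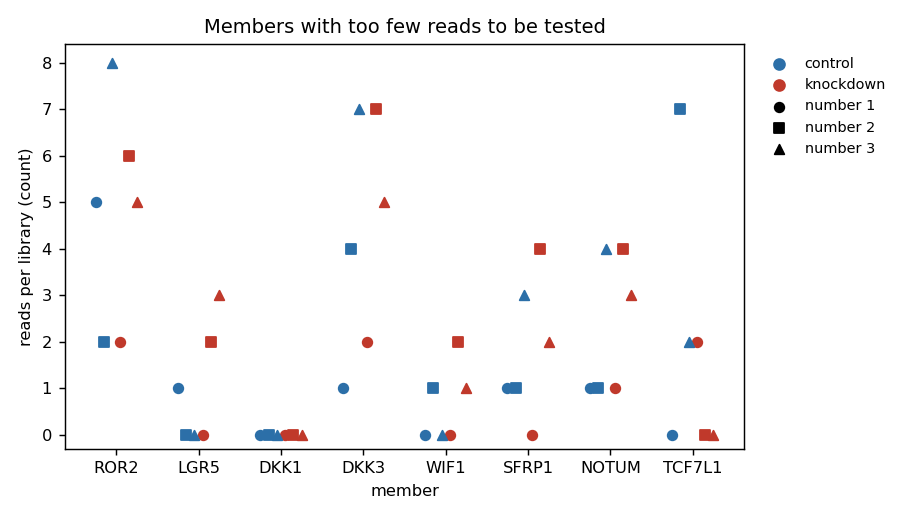
Reads per library (vertical axis, raw counts not corrected for depth) of the 8 members too low to test, with control libraries in blue, knockdown libraries in red and marker shape for the replicate number. No member exceeds 8 reads in a library, and DKK1 is at 0 in all 6.

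With ROR2, LGR5 and the nuclear factor TCF7L1 these antagonists make up the 8 untested members, none above 0.233 CPM in any library. A fit without the low-count filter gave 0 calls among those it could test. TCF7L1, a mostly repressive TCF, held 2 reads in knockdown, all in replicate 1, and 9 in control, of which 7 were in replicate 2.

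In the dishevelled and destruction complex group, 1 of 10 members fell and 0 rose (10.0%, against 7.6% of all genes). With the block 1 rose and 2 fell (30.0%, against 26.1% of all genes). CSNK1A1 encodes the casein kinase that places the first phosphate on beta-catenin within the complex (ENSG00000113712.16, chromosome 5, 149492197 to 149551552, minus strand). It measured 184, 196 and 171 CPM in knockdown and 285, 263 and 288 CPM in control, with no overlap. CSNK1A1 fell 1.52-fold, with a log2 fold change of -0.60 (SE 0.12, adjusted p 0.0179, edgeR). The call held without control replicate 2 and was lost without any other single library, with adjusted p up to 0.0785. The gene shares 37.66% of its exon bases with CTB-89H12.4 on the same strand, whose own log2 fold change was 0.01 (adjusted p 0.983, edgeR), and how reads in the shared stretch were assigned is not given in the sources used here.

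GSK3B, the kinase that adds the later phosphates, measured 97.1, 105 and 107 CPM in knockdown and 111, 155 and 132 CPM in control. The groups did not overlap, with control replicate 1 near the knockdown values. Its log2 fold change was -0.37 (SE 0.14), with an adjusted p of 0.15 without the block and 0.0244 with it (edgeR). GSK3A, the related kinase, at a mean of 8.25 CPM in knockdown and 9.71 CPM in control, had -0.24 (SE 0.21, adjusted p 0.517, edgeR). DVL1, one of 3 dishevelled genes that relay the receptor signal, measured 74.2, 127 and 80.9 CPM in knockdown and 40.8, 118 and 60.8 CPM in control. Number 2 was far above the others in both groups, which overlapped, while each pair was higher in knockdown, by 0.86, 0.10 and 0.41 on the log2 scale. Its log2 fold change of 0.36 (SE 0.36) had an adjusted p of 0.575 without the block, and with the block it was 0.45 with an adjusted p of 0.0227 (edgeR).

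CTNNB1, the gene of beta-catenin, was the most abundant member and nearly equal within pairs. It measured 569, 427 and 453 CPM in knockdown and 568, 405 and 453 CPM in control. Pair differences were 0.0026, 0.08 and -0.00069 on the log2 scale, and the fitted log2 fold change was 0.02 (SE 0.17). The scaffolds AXIN1 (0.07) and APC (0.10) and the other dishevelled genes DVL2 (0.19) and DVL3 (0.06) had log2 fold changes within 1.5 SE of 0, with adjusted p of 0.403 or more (edgeR). AXIN2, a scaffold that is also a standard target gene of beta-catenin, measured 10.3, 6.35 and 3.62 CPM in knockdown and 8.58, 6.83 and 6.68 CPM in control. The knockdown values surrounded the control values, and the fit gave -0.13 in log2 (SE 0.33, adjusted p 0.848, edgeR).

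Nuclear factors did not pass the test in either fit, and their log2 fold changes ran from -0.01 to 0.28. LEF1 measured 2.57, 1.32 and 2.38 CPM in knockdown and 2.29, 1.47 and 1.37 CPM in control (0.28, SE 0.34). TCF7 had 0.12 (SE 0.23) and TCF7L2 0.11 (SE 0.29). These DNA-binding factors were low: in control TCF7 had 2.27 to 4.23 TPM, LEF1 0.747 to 1.14 TPM and TCF7L2 0.476 to 1.07 TPM, and the last pair of ranges overlapped. TCF7, with 1819 reads over all libraries, shares 2.09% of its exon bases with SKP1 on the opposite strand, which held 44538. BCL9 and BCL9L, adaptors that join beta-catenin to PYGO proteins, had log2 fold changes of 0.04 (SE 0.21) and 0.22 (SE 0.43). BCL9L ranged from 14.8 to 49.9 CPM within the control group, with number 2 the highest, and shares 37.49% of its exon bases with CXCR5 on the opposite strand. PYGO2, which reads methylated histone H3, was the most abundant nuclear member at 41.6 to 47.2 TPM in control, with a log2 fold change of -0.01 (SE 0.16). It shares 9.23% of its exon bases with SHC1 on the same strand. How reads in these shared stretches were assigned is not given in the sources used here.

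**Figure D5:**
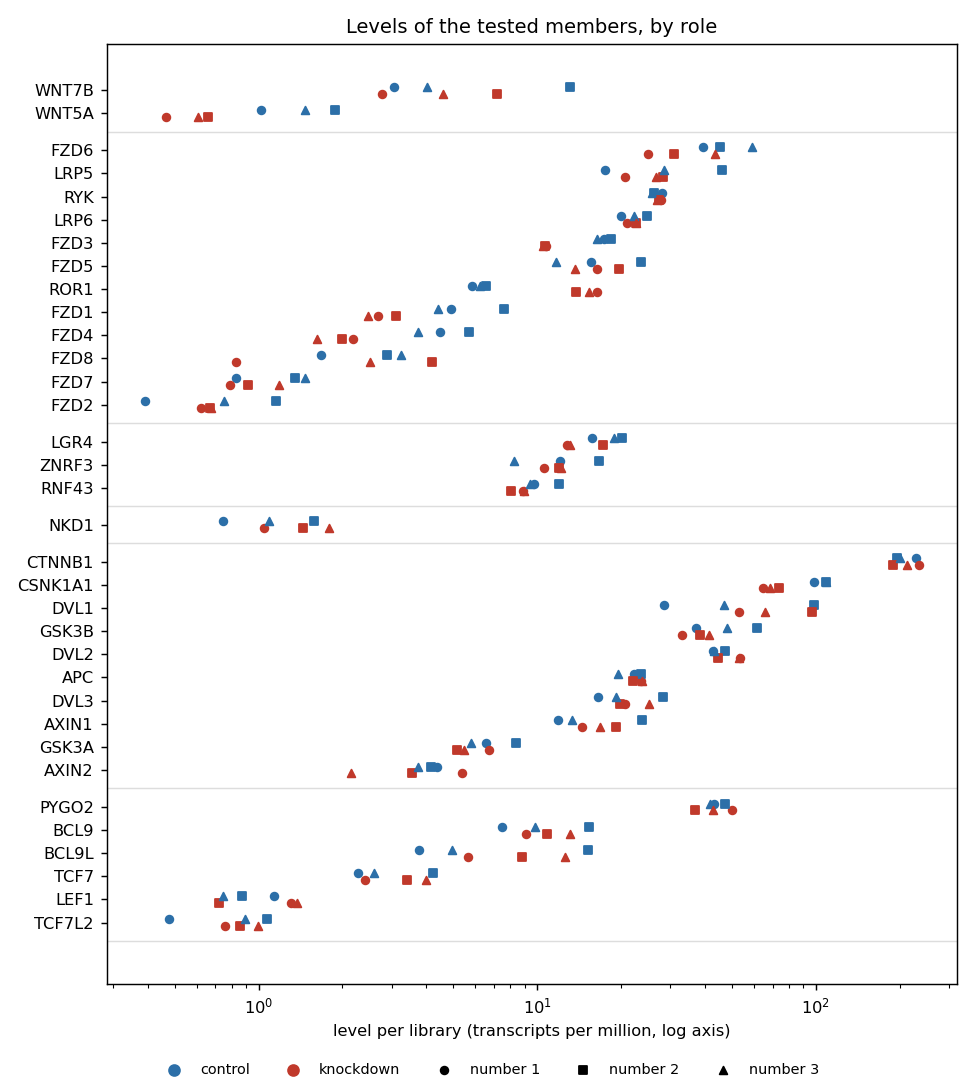
TPM in each library (horizontal log axis) for the 34 tested members, ordered within each role by the control mean; blue is control, red is knockdown and marker shape is the replicate number. CTNNB1 lies farthest right, LEF1 and TCF7L2 lie near 1 TPM, and the red ROR1 points stand clear to the right of the blue ones.

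A wider set of 160 pathway genes outside the 42 members had 112 tested, of which 6 rose and 4 fell (8.93%). With the block 23 rose and 10 fell (29.5%). Both shares are near those of all genes (7.6% and 26.1%), and the median log2 fold change was 0.08. Among 10 tested ligands and receptors 0 were called without the block and 2 with it (20.0%, against 26.1% of all genes). WNT4 had a log2 fold change of 1.02 (adjusted p 0.0748, block 0.0129, edgeR) and PTK7, a polarity co-receptor, had 0.39 (0.205, block 0.0331). WNT4 measured 5.62, 3.14 and 3.11 CPM in knockdown and 1.71, 2.40 and 1.68 CPM in control, and WNT9A had 0.54 (adjusted p 0.277, edgeR). Among 8 tested antagonists 0 were called without the block and 1 rose with it (12.5%, against 26.1% of all genes). DACT3 had 0.67 and SERPINF1 -0.48, and CXXC5, an inhibitor of dishevelled, had 0.57 (adjusted p 0.16, block 0.00354, edgeR).

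Of 24 tested cytoplasmic regulators 2 rose and 0 fell without the block (8.33%), and 6 rose and 2 fell with it (33.3%), against 7.6% and 26.1% of all genes. CSNK1G1, a casein kinase of the membrane, measured 70.7, 63.9 and 77.2 CPM in knockdown and 42.1, 41.6 and 43.9 CPM in control, and rose by 0.73 on the log2 scale (SE 0.12, adjusted p 0.011, edgeR). All knockdown libraries were above all control libraries, and the call was lost without knockdown replicate 3 (adjusted p 0.0536). FRAT2, a protein that binds GSK3, rose by 0.51 (adjusted p 0.0448, edgeR), a call lost in each of the 6 fits without 1 library (up to 0.147). FBXW11, the ligase subunit that recognises phosphorylated beta-catenin, had -0.47 (adjusted p 0.0594, block 0.00428, edgeR). CDK14, a kinase that phosphorylates LRP6, was the other lower call of the block fit, at -0.74 (adjusted p 0.000481, edgeR with block). The other higher calls of that fit were CAPRIN2 at 0.58, CSNK1G2 at 0.45, PPP2R5E at 0.34 and TNKS2 at 0.28.

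Of 20 tested nuclear regulators 1 rose and 2 fell without the block, and 5 rose and 2 fell with it (35.0%, against 26.1% of all genes). PYGO1 rose by 0.51 (adjusted p 0.0382, edgeR), and HIPK1 and RUVBL2 had log2 fold changes of -0.54 and -0.67 (0.0225 and 0.0272) and fell. PYGO1 lost its call in all 6 fits without 1 library (up to 0.144), HIPK1 in all but the one without control replicate 2 (up to 0.105), and RUVBL2 without any one knockdown library (up to 0.0973). The block fit added TLE1, a co-repressor of TCF factors, at 0.70, TBL1XR1 at 0.46, and the acetyltransferases CREBBP at 0.45 and EP300 at 0.39, with adjusted p of 0.00468 to 0.0408 (edgeR with block).

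In the planar polarity and calcium branch, which WNT5A, ROR1 and FZD3 feed, 1 of 32 tested genes rose and 1 fell without the block (6.25%), and 5 rose and 2 fell with it (21.9%, against 26.1% of all genes). CDC42, a small GTPase of the cytoskeleton, measured 71.2, 46.2 and 54.3 CPM in knockdown and 156, 104 and 129 CPM in control. It had no overlap between groups and a log2 fold change of -1.18 (SE 0.20, adjusted p 0.0104, edgeR), called in all fits without 1 library except the one without knockdown replicate 2 (0.0526). NFAT5, an NFAT family transcription factor that answers osmotic stress, measured 258, 361 and 404 CPM in knockdown and 129, 205 and 154 CPM in control. It rose by 1.07 (SE 0.21, adjusted p 0.0201, edgeR). Without control replicate 3, or without knockdown replicate 2 or 3, NFAT5 was not called (up to 0.0813). MAPK8, the kinase JNK1, had 0.35 (adjusted p 0.105, block 0.0209, edgeR). Further calls of the block fit were VANGL2, a core polarity protein, at 1.36, SCRIB at 0.46, NFATC3 at 0.34 and CAMK2D at -0.48, with adjusted p of 0.0205 to 0.0385 (edgeR with block).

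Among 18 tested target genes of beta-catenin and TCF 2 rose and 1 fell without the block (16.7%, against 7.6% of all genes), with a median of -0.10. With the block 4 rose and 4 fell (44.4%, against 26.1% of all genes). ENC1 measured 39.2, 33.5 and 44.0 CPM in knockdown and 22.0, 16.0 and 21.2 CPM in control, and rose by 0.98 (SE 0.17, adjusted p 0.0133, edgeR), a call lost without knockdown replicate 3 (0.0549). JUN, a subunit of AP-1, measured 39.9, 70.9 and 37.9 CPM against 16.8, 26.5 and 18.5 CPM and rose by 1.27 (SE 0.27, adjusted p 0.026, edgeR). JUN was not called without control replicate 1 or 3, nor without knockdown replicate 2 (up to 0.0863). CCND1, the gene of cyclin D1, fell (adjusted p 0.0118, edgeR) and was called in all 6 fits without 1 library. The calls that the block fit added were ID2 at 2.35, SOX4 at 0.74, BIRC5 at -1.19, MYC at -0.53 and JAG1 at -0.35, with adjusted p of 8.25e-07 to 0.036 (edgeR with block). Without the block their adjusted p were 0.0613 to 0.408. Targets thus moved in both directions, while AXIN2 and NKD1, which are members and targets, did not pass the test.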

How the data were processed

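The deposited table gave raw counts of reads for each gene in 3 knockdown and 3 control libraries. Per the submitters' processing notes, the authors used bcl2fastq, STAR 2.5 on hg38, featureCounts from Subread 1.6.5 and edgeR 3.20.8; per the labels' protocols, RNA came from Trizol and a TruSeq RNA kit. Strand setting and annotation release are not given in the sources used here. The table had 63299 genes, 0 of them without a name, and 53747 identifiers occur in GENCODE 29 with the same coordinates.

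Counts were tested here with edgeR 4.0.16 in R 4.3.3 (TMM scaling, filterByExpr by group, two-sided quasi-likelihood F test, Benjamini-Hochberg over 21101 genes, called at an adjusted p under 0.05). Log2 fold changes are knockdown minus control. The SE of an edgeR log2 fold change was computed as its absolute value over the square root of the F statistic. A distance from 0 in SE thus restates that F test. TPM used the gene lengths of the table. Overlaps of exons came from its coordinates. The biological coefficient of variation was 20.8%. Alternatives used RLE scaling, other filters, DESeq2 1.42.0, limma-voom 3.58.1, a replicate block and omitted libraries. Omitting both libraries numbered 2 was added after the data were seen. The edgeR fit without block, DESeq2 and limma-voom were tested on simulated data that held no pairing of libraries. DESeq2 had the largest share of false calls there, above its nominal level, so its counts serve only for comparison. The fit with the replicate block was not tested on simulated data.

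Replicate numbers come from the titles, and the series text calls the replicates biological. Deviations from group means correlated at 0.554, 0.381 and 0.358 for equal numbers and at -0.39 to 0.06 otherwise, so the numbers were taken to pair the libraries. P-values measure the spread between these libraries, and no more is stated of the cultures behind them.

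The members and lists were chosen with earlier results of these data known. Named genes were WDR77, PRMT5, all 42 members, and from each other list the 3 genes with the smallest adjusted p; pathway genes called with the block alone were added after their values were seen. Of the marker genes, 1 is not reported here. Upstream sequences came from RefSeq (GRCh38.p14) for 28 members, and the other 14 had no entry in the table used.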

Additional observations from a re-analysis of the deposited data

How the results depend on the processing

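Among the 42 members the same 6 calls were made with RLE scaling, with at least 1 CPM in 3 libraries, with DESeq2 and with limma-voom. Without the low-count filter FZD6 was added, giving 6 lower. With the replicate block 2 members were higher and 7 lower, DVL1 joining the higher and FZD6 and GSK3B the lower, and the block kept the 6 others. No value reversed its sign past the threshold. Fits that left out 1 library called 1 member higher, ROR1, each time, and 0 to 4 lower; 0 lower remained without knockdown replicate 2, and 1 (FZD4) without knockdown replicate 3. Without both libraries numbered 2, members had 1 higher and 0 lower. These fits had fewer samples and were run without the replicate block, and the cause of the lost calls was not tested.

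For all genes, counts of 574 higher and 1029 lower became 1336 and 1812 without the filter, 898 and 1440 with DESeq2, 2358 and 3148 with the replicate block, and 32 and 99 without both libraries numbered 2. Leaving out 1 library gave 168 to 500 higher and 329 to 923 lower. For the 160 other pathway genes, 6 higher and 4 lower became 12 and 8 without the filter, 9 and 6 with DESeq2, 23 and 10 with the block, and 1 and 0 without both libraries numbered 2, with 1 to 5 higher and 1 to 5 lower in fits without 1 library. Depth limits the 8 untested members, each at 8 reads or fewer in a library.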

Other observations

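PRMT5, the enzyme that MEP50 assists, measured 145.2 ± 3.73 CPM in knockdown and 209.6 ± 15.96 CPM in control (SD, n = 3), a log2 fold change of -0.53 (SE 0.11, adjusted p 0.0268, edgeR). The call held without control replicate 2 and was lost on omitting any other single library (0.0537 to 0.119). PRMT5 shares 27.06% of its exon bases with PRMT5-AS1 on the opposite strand, which had -0.48 (adjusted p 0.0463, edgeR), and reads of the pair cannot be told apart where the strand setting is not given.

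Markers named by the rule included KLK3, the gene of prostate-specific antigen, at -1.48 (adjusted p 0.0027), KLK2 at -1.01 (0.0205) and KRT18 at -0.59 (0.0168), all lower in every knockdown library (edgeR). Of 10 tested luminal markers 4 fell without the block (40.0%, against 7.6% of all genes) and 6 with it (60.0%, against 26.1%). KLK3 was called on omitting each library in turn. KLK2 stayed past the threshold on omitting control replicate 2 or knockdown replicate 1 (otherwise up to 0.0827), and KRT18 on omitting control replicate 2 (otherwise up to 0.0723). Of the 2 basal markers tested, DST had -0.54 (0.0395), and KRT14, below 1 CPM in both groups, had -3.60 (0.0338). DST was not called with RLE scaling (0.0518), with the filter of 1 CPM, or on omitting any library but control replicate 2 (up to 0.154). KRT14 ran from -2.77 without knockdown replicate 2 to -7.66 without knockdown replicate 3, and missed the threshold on omitting control replicate 1 or 3, or knockdown replicate 1 or 2 (as high as 0.118). In the remaining marker lists 0 genes were called without the block by edgeR. There ACTA2 had 0.67 (0.075), MYH11 -0.63 (0.123), COL3A1 2.04 (0.223), SYP -0.76 (0.0731), ENO2 -0.60 (0.17), CHGA 0.73 (0.493), VWF -0.73 (0.23) and CD68 -0.81 (0.288). With the block 6 of these passed: VWF (0.000632), COL3A1 (0.002), ENO2 (0.0051), ACTA2 (0.0204), SYP (0.0224) and MYH11 (0.0229). They are 3 of 5 tested fibroblast and muscle genes, 2 of 3 neuroendocrine genes and 1 of 2 immune and endothelial genes. Of all genes 26.1% passed with the block. COL3A1 depended on single libraries, at 1.04 without knockdown replicate 1 (0.538) and 4.18 without control replicate 1 (0.0437).

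Several members stood high in the libraries numbered 2. Against the mean of the other libraries of the group on the log2 scale, WNT7B was higher by 1.00 in knockdown and 1.71 in control, DVL1 by 0.71 and 1.25, LRP5 by 0.26 and 0.85, AXIN1 by 0.29 and 0.73, and BCL9L by 0.06 and 1.62. Across the 34 tested members, as a description over genes that share these libraries, this difference correlated with the GC content of the transcript at r = 0.339 in knockdown and 0.644 in control. Over 20916 genes the correlations were 0.0676 and 0.332.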
